A study of Homo sapiens with 12 samples.

Results

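The genes described here are 10 human genes for mitochondrial chaperones and proteases, chosen as a list of symbols of the mitochondrial unfolded protein response, and all 10 were among the 23292 gene symbols of the series. The study treated HEK293T cells, a line derived from human embryonic kidney (the culture protocol names the parent line HEK293), for 6 h with DMSO vehicle or with 10 µM of AA263, AA263yne or AA263-5. AA263 is a phenylhydrazone described as an activator of ATF6, an endoplasmic reticulum (ER) stress sensor, and in AA263yne an alkyne-bearing group replaces the nitro group of its B-ring. AA263-5 is a further analog of AA263. Each of the 4 groups had 3 samples, termed biological replicates by the submitters, and RNA from all 12 was sequenced, in strand-specific polyA-selected libraries by the labels and whole transcriptome libraries by the study's methods.

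The values below are the authors' mean normalized values, 1 per gene, taken over all 12 samples with vehicle and compound-treated cells together. They describe how strongly each gene was expressed across the experiment as a whole. They carry no spread between samples, so no difference between genes was tested, and neighbours in an order of levels cannot be separated by their error. The levels in single groups, and so the response to each compound, were not analysed here. In bulk RNA, fewer cells expressing a gene and less RNA per cell cannot be told apart.

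Mitochondria make few of their own proteins, so most arrive unfolded through the import channels from the cytosol. HSPA9 (mortalin) pulls them into the matrix, and the chaperonin of HSPD1 (HSP60) with its lid HSPE1 (HSP10) encloses and folds them, while proteases remove those that fail to fold or assemble. When this capacity is exceeded, cells can raise nuclear genes for these chaperones and proteases, a program known as the mitochondrial unfolded protein response, in which ATF4, ATF5, DDIT3 (CHOP) and HSF1 have been implicated.

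The identity of the cells was checked on marker genes. Of 5 genes taken as markers of HEK293 cells, which express neuronal intermediate filaments, *NEFM* had a mean normalized value of 3786, *NEFL* 2225, *INA* 704 and *VIM* 18797. The fifth, the kidney developmental factor *PAX2*, was low at 27.7. Of 6 markers of blood, liver, muscle and islet cells, 4 were listed, with mean normalized values from 0.488 for *CD3E* to 4.79 for *APOA1*, and all 4 were below a mean of 10.

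All 10 genes were well expressed. Their mean normalized values ran from 1741 for *CLPX* to 30022 for *HSPD1*, which placed them between the percentiles 82.2 and 99.5 of all 23292 symbols, where the median mean was 99.7. Together they held 0.300% of the summed values. Longer transcripts yield more fragments, so levels of different genes were compared per kilobase (kb) of the Ensembl canonical transcript. On that scale the members had a median of 3295 per kb, against 206 per kb over the 14068 symbols with a known length and a mean of at least 10, and 6 of the 10 lay in the top 10% of those symbols. As the members were chosen by name, these figures describe the list and set no expectation for it.

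**Figure D1:**
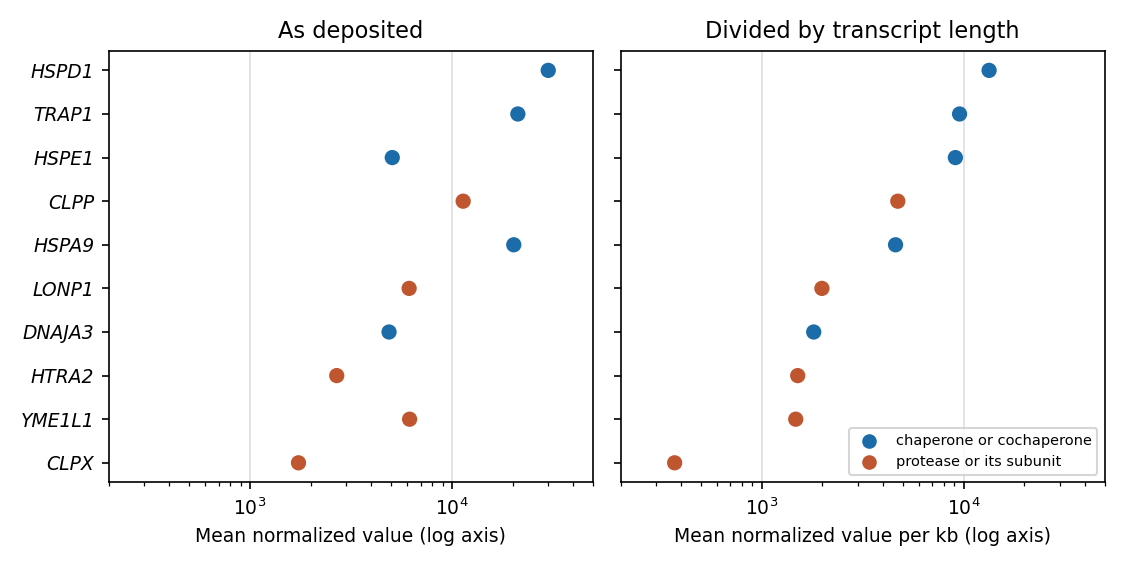
Mean normalized value of each of the 10 genes over all 12 samples, as deposited (left) and per kb of canonical transcript (right), on log axes; each point is 1 mean with no error available. Per kb the genes run from 371 for *CLPX* to 13373 for *HSPD1*, and *HSPE1* moves up among the highest once its short transcript is taken into account.

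Per kb the chaperonin genes were among the most abundant members. *HSPD1* encodes the subunit of the double-ring chaperonin of the matrix. It lies on chromosome 2 of GRCh38 from 197486584 to 197516737 on the minus strand, and its canonical transcript has 12 exons, 2245 bases and 573 codons. Its mean normalized value was 30022, or 13373 per kb, the highest of the members on that scale and at the percentile 99.0 per kb. *HSPE1* encodes the small lid of the same machine and lies from 197500140 to 197503449 on the plus strand, with 4 exons and 102 codons. Its annotated span falls within that of *HSPD1*, which takes in a transcript that starts beyond *HSPE1*, while the canonical starts are apart. On its short transcript of 557 bases the mean normalized value was 5072, or 9106 per kb, at the percentile 98.2. Per kb the ratio of *HSPD1* to *HSPE1* was 1.47, and per kb of coding sequence 1.05. Without division by length it was 5.92. The partners thus stood close to each other in level per length, with a gap whose size depended on the length used. With no spread between samples, it cannot be said whether they differed.

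*HSPD1* and *HSPE1* are read in opposite directions from canonical start sites that 538 bases separate. A RefSeq start further upstream for *HSPD1*, at 197500274, lies between them. Known motifs, 5 in all, were searched on both strands in windows from 250 bases before to 50 bases after each RefSeq start. The heat shock element, bound by HSF1, was searched as the units GAA, TTC and GAA with 2 bases of any kind between neighbours. Of 35116 windows of all genes, 0.490% held it, and of 11 windows of the members, 1 did. That window belonged to the canonical *HSPD1* start and held 2 overlapping matches that cover 18 bases. They lie between the canonical starts of the genes, and the matched base nearest to *HSPE1*, at 197500085, is 245 bases upstream of the canonical *HSPD1* start and 294 bases upstream of that of *HSPE1*. The GENCODE annotation also places first exons of other *HSPD1* transcripts there. The annotated span of *HSPE1* begins at 197500140, nearer to the match than its canonical start. Relative to the *HSPD1* start at 197500274, the match lies downstream. The sequence is shown because it is the 1 stretch among the members that matched this element, with the matched bases in capitals, 5′ to 3′ on the minus strand of GRCh38.p14 at chr2:197500061-197500090:
*HSPD1*: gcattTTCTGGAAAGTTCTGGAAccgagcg

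**Figure D2:**
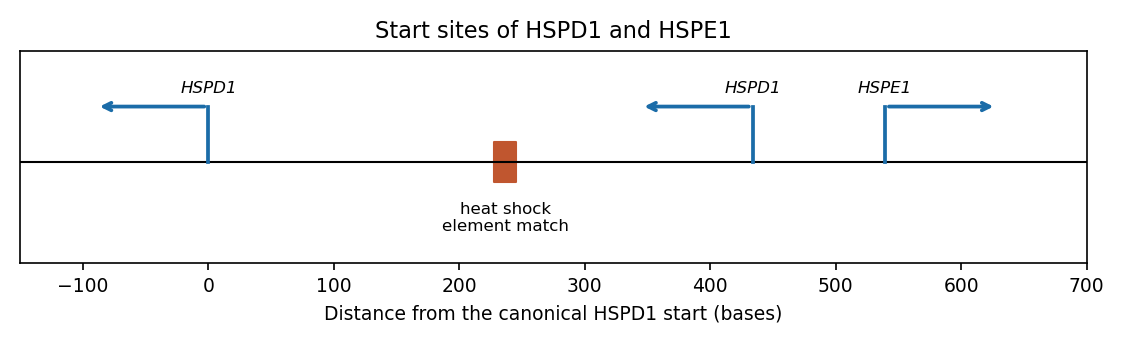
Map of the DNA around the canonical starts of *HSPD1* and *HSPE1*, with distance in bases from the canonical *HSPD1* start; arrows mark RefSeq start sites and the direction of transcription, and the box marks the 18 bases matching the heat shock element. The match lies between the canonical starts, of which that of *HSPE1* sits at 539 bases on the axis.

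*TRAP1*, the mitochondrial member of the HSP90 family, had a mean normalized value of 21233, or 9552 per kb. It lies on chromosome 16 from 3651639 to 3717553 on the minus strand, with 18 exons and 704 codons. Its counterparts in other compartments were higher per kb. Cytosolic *HSP90AA1* stood at 30376 per kb and *HSP90AB1* at 28060 per kb, which were 3.18 and 2.94 times the level of *TRAP1*. With all exons joined these ratios were 4.70 and 5.87. *HSP90B1*, which encodes GRP94 of the ER, stood at 17453 per kb, a ratio of 1.83 that became 0.905 when all exons of each gene were joined as its length. The order of *TRAP1* and *HSP90B1* therefore rests on the choice of length. This ratio, too, mixes vehicle and compound-treated cells, and that between an ER and a mitochondrial chaperone gene in vehicle cells alone was not tested. The window at the *TRAP1* start held a match to the cAMP response element, searched as TGACGTCA, 94 bases upstream of the start. Of all windows, 1.85% held this motif. It is the 1 match of a member within 100 bases of its canonical start, and is shown with the matched bases in capitals on the minus strand at chr16:3717600-3717629:
*TRAP1*: ggcgcccgccgTGACGTCAccgccccgcgc

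*HSPA9* encodes mortalin, the HSP70 of the matrix. With a transcript of 4404 bases, its mean normalized value of 20270 came to 4603 per kb, at the percentile 96.1. It lies on chromosome 5 from 138553756 to 138575675 on the minus strand, with 17 exons and 679 codons. Among HSP70 genes, cytosolic *HSPA8* stood at 62951 per kb, 13.7 times the level of *HSPA9* (7.39 times under coding length), and *HSPA5*, which encodes BiP of the ER, at 18618 per kb, 4.05 times its level. *HSPA1A*, the inducible cytosolic form, stood at 25902 per kb, and it has a near-identical copy with which it may share reads. *HSPA9* was thus the lowest per kb of the HSP70 genes set side by side here. The paper reports the gene for BiP as an ATF6 target induced by compounds of this class. The ratio of *HSPA5* to *HSPA9* mixes vehicle and compound-treated cells, and its value in vehicle cells alone was not tested.

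*DNAJA3* encodes TID1, the J-domain protein that stimulates mortalin. It lies on chromosome 16 from 4425805 to 4456775 on the plus strand, with 12 exons and 480 codons, and its canonical start is 708 kb from that of *TRAP1*. The mean normalized value of *DNAJA3* was 4889, or 1811 per kb, so that *HSPA9* exceeded it by 2.54 times per kb. Of the cytosolic J-domain proteins of the same class, *DNAJA1* was higher at 6894 per kb and *DNAJA2* lower at 774 per kb.

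The 8 further cochaperone genes of the list were lower than *HSPA9* throughout, with a median of 360 per kb. *GRPEL1*, the nucleotide exchange factor of mortalin, was the highest at 1289 per kb, which *HSPA9* exceeded by 3.57 times, or by 1.89 times under coding length. Its paralog *GRPEL2* stood at 66.6 per kb, and *GRPEL1* exceeded it by 19.4 times, or by 10.7 times with all exons joined. *HSCB*, the J-domain protein of iron-sulfur cluster assembly, stood at 522 per kb. *DNAJC11* of the inner membrane organizing system stood at 956 per kb and *CLPB*, a disaggregase of the intermembrane space, at 208 per kb. *DNAJC15* was the lowest, with a mean normalized value of 5.86, and was the 1 gene of this list below a mean of 10.

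The members comprised 5 protease genes and 5 chaperone and cochaperone genes. Per kb the proteases ran from 371 to 4723 with a median of 1509, and the chaperones from 1811 to 13373 with a median of 9106. The ranges overlap, since *CLPP* and *LONP1* exceeded *DNAJA3*, although *LONP1* fell below *DNAJA3* under coding length. With all exons joined, 4 of the 5 proteases exceeded *DNAJA3*, and *CLPX* did not.

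*CLPP* and *CLPX* form 1 matrix protease, in which rings of the serine peptidase CLPP are capped by rings of the unfoldase CLPX. *CLPP* lies on chromosome 19 from 6361531 to 6370242 on the plus strand, with 6 exons and 277 codons, and had a mean normalized value of 11382, or 4723 per kb, at the percentile 96.3. *CLPX* lies on chromosome 15 from 65148219 to 65185342 on the minus strand, with 14 exons and 633 codons. The unfoldase gene had a mean normalized value of 1741, or 371 per kb, at the percentile 62.7 and the lowest of the members. Per kb *CLPX* stood at 0.0785 of the level of *CLPP*, and the ratio lay between 0.0669 and 0.153 under the other lengths and without division by length. Under the 3 lengths the level of *CLPX* was thus at most 0.0989 of that of *CLPP*, whereas *HSPD1* was at most 1.47 times *HSPE1*.

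*LONP1* encodes the Lon protease of the matrix, which degrades oxidized and misfolded proteins and helps to maintain mitochondrial DNA. It lies on chromosome 19 from 5691834 to 5720572 on the minus strand, with 18 exons and 959 codons, and its canonical start is 641 kb from that of *CLPP*. The mean normalized value of *LONP1* was 6146, or 1988 per kb, which exceeded its peroxisomal counterpart *LONP2* at 268 per kb by 7.43 times and *CLPX* by 5.36 times. Under coding length these ratios were 2.49 and 2.33. The window at an upstream RefSeq start of *LONP1*, at 5720452, held a sequence match for nuclear respiratory factor 1 (NRF1). NRF1 is a regulator of nuclear genes for mitochondrial proteins, and its binding was not measured. The palindrome of 10 bases that was searched is the run in capitals below, and 1.24% of all windows held it. The match lies 200 bases upstream of that start and 506 bases upstream of the canonical one. It is shown as the 1 NRF1 match among the members, with the matched bases in capitals on the minus strand at chr19:5720633-5720662:
*LONP1*: ctgaagccctGCGCATGCGCatcaatgagt

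The remaining motifs had no match in the 11 windows of the members. These were the element bound by ATF4, searched as TGATGNAA and found in 3.62% of all windows, and the ER stress element bound by ATF6, searched as CCAAT and CCACG with 9 bases of any kind between them and found in 0.0769%. The absence of a match says only that these letters are not in the windows. *CLPP* and *YME1L1* had no window. The 11 windows belong to 8 members, with more than 1 each for *HSPD1*, *LONP1* and *HTRA2*. They are not independent, since 1 window of *HSPD1* shares 204 bases with that of *HSPE1*. The 11 windows had GC contents from 63.0% to 76.3%, against a median of 58.7% over all windows, and held from 23 to 45 CG pairs each, against a median of 14.

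*YME1L1* and *HTRA2* work outside the matrix. *YME1L1* encodes the i-AAA protease of the inner membrane, which cuts proteins of the intermembrane space, OPA1 among them. It lies on chromosome 10 from 27110111 to 27155266 on the minus strand, with 19 exons and 716 codons. With a mean normalized value of 6181, it stood at 1475 per kb. *AFG3L2*, a subunit of the m-AAA protease that faces the matrix, stood at 924 per kb and its partner *SPG7* at 502 per kb. This ratio of 1.84 became 9.48 with all exons joined. *OMA1*, which also cuts OPA1, stood at 720 per kb, and *YME1L1* exceeded it by 2.05 times, or by 3.38 times under coding length. *HTRA2*, a serine protease of the intermembrane space that can bind inhibitors of apoptosis once released, lies on chromosome 2 from 74529596 to 74533350 on the plus strand, with 8 exons and 458 codons. Its mean normalized value was 2693, or 1509 per kb, and its order against *YME1L1* turned with the length, with ratios of 1.02, 0.681 under coding length and 0.939 with all exons joined. It exceeded *HTRA1*, a secreted relative, by 16.1 times per kb, or by 9.06 times with all exons joined.

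The order of the members was taken under 3 lengths. Per kb of canonical transcript it ran *HSPD1*, *TRAP1*, *HSPE1*, *CLPP*, *HSPA9*, *LONP1*, *DNAJA3*, *HTRA2*, *YME1L1* and *CLPX*. Under coding length and under all exons joined, the first 5 were again these 5 genes and *CLPX* was again the last. The step between the fifth and the sixth gene was 2.32 times per kb of canonical transcript, 2.93 times per kb of coding sequence and 1.70 times per kb of all exons joined. Within the first 5, and among *LONP1*, *DNAJA3*, *HTRA2* and *YME1L1*, places changed with the length. *CLPP* exceeded *HSPA9* by 1.03 times per kb of canonical transcript, 1.38 times under coding length and 1.56 times with all exons joined.

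**Figure D3:**
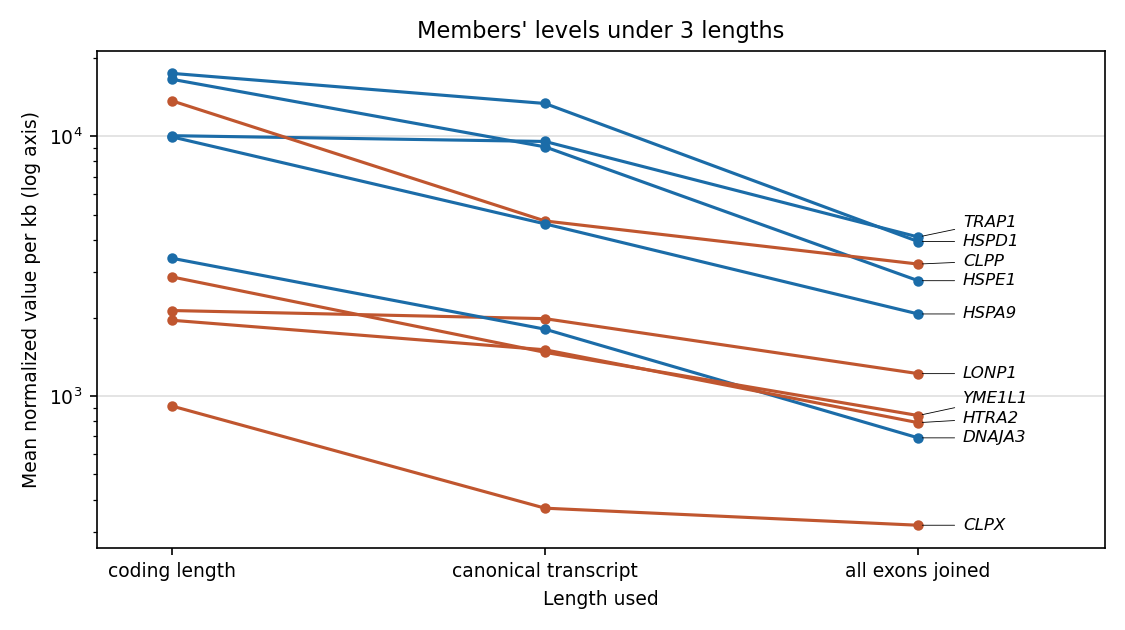
Level of each member per kb under coding length, canonical transcript length and the length of all exons joined, on a log axis, with chaperones in blue and proteases in orange. The first 5 genes stay above the other members under all 3 lengths and *CLPX* stays lowest, while lines within each set cross.

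Copies and readthrough at the loci bear on how reads could be assigned. RefSeq names 22 pseudogenes of *HSPD1*, 28 of *HSPE1*, 2 of *HSPA9* and 1 of *YME1L1*, and 0 of these 53 symbols were in the tables. The values of these 4 genes are uncertain to the extent that reads match both a gene and its copies, and how such reads were treated was not given in the sources used here. Pseudogenes were counted for the members only, so this limit was not examined for the genes set beside them. *HSPE1-MOB4*, a readthrough transcript that starts within *HSPE1*, was listed with a mean normalized value of 102, or 115 per kb, which *HSPE1* exceeded by 79.1 times per kb, with 127 times under coding length and 24.2 times with all exons joined.

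The members were set beside 35 other genes of mitochondrial protein quality control and import. These 35 genes had a median of 924 per kb, and 7 of the 35 lay in the top 10% of symbols, against 6 of the 10 members. Of the 35, 1 exceeded *HSPD1* and 9 fell below *CLPX* on this scale. Under coding length 2 exceeded *HSPD1* and 11 fell below *CLPX*, and with all exons joined 3 and 16 did. The highest was *PHB2* at 17551 per kb, and *PHB* stood at 10991 per kb. They encode the prohibitins, the ring-forming scaffold of the inner membrane that binds the m-AAA protease. Among the other proteases the presequence-degrading *PITRM1* stood at 2335 per kb, and the subunits of the presequence-cleaving peptidase stood at 1586 per kb for *PMPCA* and 955 per kb for *PMPCB*. The order of these subunits turned with the length, with a ratio of *PMPCB* to *PMPCA* of 0.602 per kb of canonical transcript and 1.21 under coding length. The inner membrane peptidase gene *IMMP2L* was the lowest of the protease list at 24.2 per kb. The 13 import genes had a median of 1259 per kb, from 205 for *TIMM21* to 4592 for *TIMM23*, the channel of the inner membrane.

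The list of counterparts in other compartments holds chaperone genes of the cytosol and the ER along with the proteases *LONP2* and *HTRA1*. These 18 genes had a median of 9769 per kb, and 15 of them exceeded the median of the members. Subunit genes of 1 cytosolic chaperonin make up 8 of the 18, whereas 5 of the 10 members are protease genes. The medians thus compare lists of unlike make-up. Cytosolic folding by a chaperonin is done by TRiC, whose 8 subunit genes ran from 7484 per kb for *CCT8* to 26934 per kb for *CCT7*, with a median of 9325. *HSPD1* stood at 1.43 times and *HSPE1* at 0.977 times that median. The mitochondrial chaperonin genes lay within the range of the TRiC genes per kb of canonical transcript and of coding sequence. With all exons joined, *HSPD1* at 3935 per kb and *HSPE1* at 2782 per kb fell below all 8, of which *CCT8* was the lowest at 4153 per kb.

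**Figure D4:**
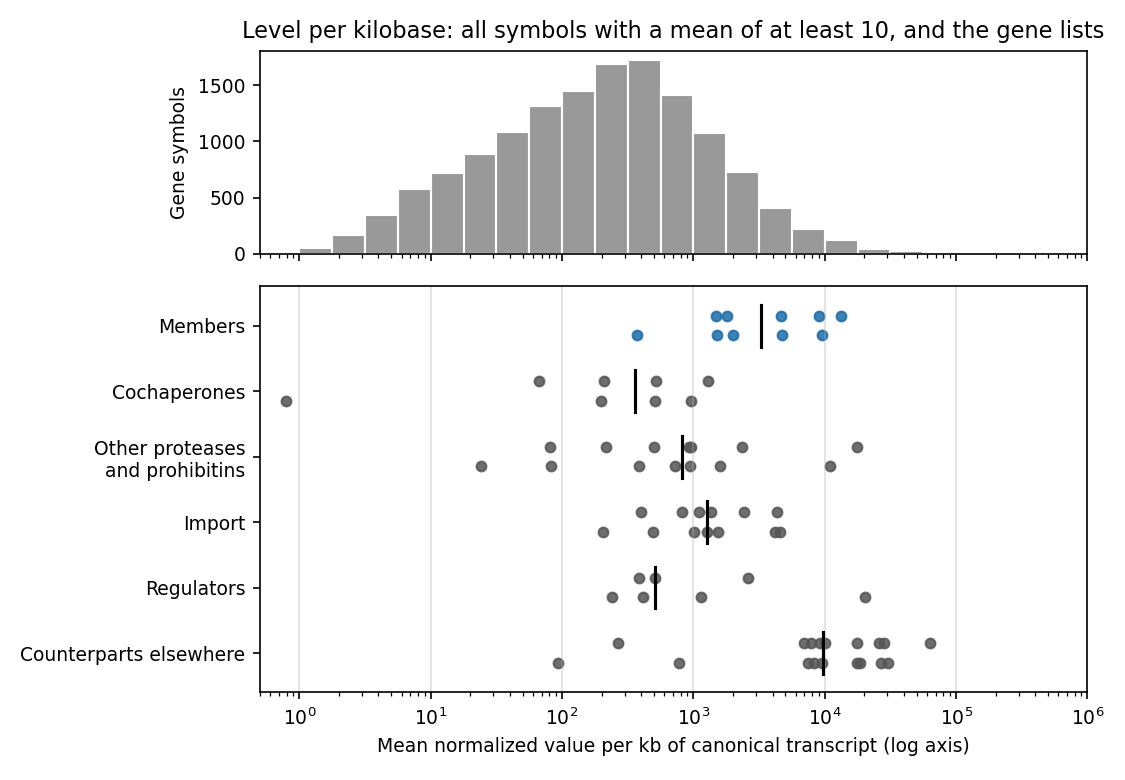
Level per kb of canonical transcript on a log axis, as a count of the 14068 symbols with a length and a mean of at least 10 (top), and for each gene of the lists (bottom; points are genes, black bars are medians). The members, with a median of 3295, stand to the right of the cochaperones at 360, other proteases and prohibitins at 822 and import genes at 1259, and to the left of the counterparts in other compartments at 9769. The lists differ in their make-up of chaperones and proteases.

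The 7 regulators of the mitochondrial and integrated stress responses were all above a mean of 10. *ATF4*, which is controlled largely at translation, was the highest with a mean normalized value of 28565, or 20130 per kb, which per kb was above every member. The heat shock factor *HSF1* stood at 2587 per kb and *EIF2AK1*, the kinase HRI that acts downstream of mitochondrial stress, at 1150 per kb. *DELE1*, listed under its older symbol KIAA0141, stood at 412 per kb and relays that stress to HRI. The transcription factors *CEBPB* and *DDIT3* stood at 506 and 387 per kb, and *ATF5* was the lowest at 241 per kb.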

How the data were processed

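RNA from HEK293T cells was sequenced in 12 samples, 3 in each of 4 groups (vehicle, AA263, AA263yne and AA263-5). Per the study's methods, the authors aligned reads with SeqManPro to GRCh38.p7, quantified them with ArrayStar and QSeq, and compared groups in DESeq2 (version 1.40.1 per the labels, which list GRCh38 beside GRCh37). The annotation is not given in the sources used here. The deposited signal is the authors' mean, over all samples, of values scaled by DESeq2's size factors. It was identical in the 3 deposited tables. Their other columns hold the authors' own comparisons of each compound with vehicle (fold changes, standard errors, statistics and p-values) and were not used, so no effect of a compound, spread or test is given. The methods state a nominal number of reads per sample. The totals reached in single samples were not analysed here, and intervals were not computed.
The authors state that RPKM entered DESeq2. The deposited means sum to 36.6 M, whereas the same means turned into RPKM would sum to 0.400 M over the symbols with a length, so they were treated as not divided by length.
Each mean was divided by the length, in kilobases, of the Ensembl canonical transcript in GENCODE 44 (GRCh38). Symbols were matched directly or through RefSeq synonyms (17970 of 23292, 77.2%). Percentiles per kilobase were taken among the 14068 matched symbols with a mean of at least 10, which are 90.0% of all symbols at that level, a choice made after the data were seen. In every deposited file 23 symbols had become dates or numbers. Motifs were searched on both strands in RefSeq promoter windows (GRCh38.p14). The length, percentile and motif steps were tested on simulated data. Python 3.11.15 and pandas 2.3.3 were used.
The members and lists were chosen with earlier results of these data known. The rule for named genes took the members, the regulators, and the highest and lowest of each list. Other genes of the lists that are named, and the partner ratios beyond *HSPD1* to *HSPE1* and *CLPX* to *CLPP*, were chosen after the values were seen. Protein sequences were not analysed here.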

Additional observations from a re-analysis of the deposited data

How the results depend on the processing

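No paired analysis was possible because each gene had 1 mean over all samples. For the same reason no replicate could be left out, and a move cannot be set against a spread between replicates. The median percentile of the members' mean normalized values was 95.2 among all symbols, 92.9 among symbols with a mean of at least 10 and 90.5 with at least 100. That of the 35 other mitochondrial genes was 83.7 among all symbols and 75.7 with a mean of at least 10. The members' median was 3295 per kb of canonical transcript, 6673 under coding length and 1647 with all exons joined. The ratio of *HSPD1* to *HSPE1* was 1.47, 1.05 and 1.41 in the same order, and 5.92 without division by length. The ratio of *CLPX* to *CLPP* was 0.0785, 0.0669 and 0.0989, and 0.153 without division. No direction turned in either ratio under these lengths. For the other ratios printed, apart from those to the TRiC median, a value under another length stands beside each that moved by over 1.5 times. These were chosen after the data were seen. For the TRiC genes, levels rather than ratios were given with all exons joined. The percentile of the members per kb had a median of 93.2 among symbols with a mean of at least 10 and 94.6 among all symbols with a length, an alternative chosen after the data were seen. The read totals reached in single samples were not analysed here, so the precision that depth gives each value is unknown.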
